A study of Mus musculus with 12 samples.

Results

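The genes described here are those whose hippocampal RNA level differed by less than 1.6 fold (0.68 on the log2 scale) between mice with and without the 5xFAD transgenes and could still be resolved by the pooled comparison of 6 against 6 mice. Of 18101 genes tested, 312 met this definition, 300 of them higher and 12 lower in transgenic mice. They were selected on the pooled transgene difference itself, namely a Benjamini-Hochberg adjusted p under 0.02 in limma (a linear model across all genes with the S51A allele as covariate) together with a difference below 1.6 fold. Their differences are therefore a description, given as log2 transgenic minus non-transgenic with the SE of the fit, and they are no test of the transgenes.

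Each of 12 mice, 14 to 15 months old, gave RNA of the hippocampus for 1 exon array (Affymetrix Mouse Exon 1.0 ST). The transgenic side held 3 5xFAD and 3 5xFAD;eIF2α+/S51A mice, and the non-transgenic side held 3 wild-type and 3 eIF2α+/S51A mice. 5xFAD mice are hemizygous for human transgenes with mutations of familial Alzheimer's disease, which neurons express from Thy1 regulatory sequences. The S51A knock-in, present on 1 allele of Eif2s1, puts alanine in place of serine 51, the residue of eIF2α that stress kinases phosphorylate. The 5xFAD mice came from a B6/SJL background and the knock-in from C57BL/6J, and the labels of all groups name both backgrounds. The question behind the cross was whether the S51A allele changes what the transgenes do. Only the effect of the transgenes, pooled over the allele, selected the genes below.

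Amyloid deposits draw microglia, the resident phagocytes of the brain, which leave a surveying state for a phagocytic state, while astrocytes become reactive. Microglia take up and digest debris in lysosomes, and astrocytes make most of the cholesterol of the adult brain and pass it to other cells on ApoE particles. In bulk tissue, more or fewer cells of a type and more or less RNA per cell cannot be told apart, and this holds for every level below.

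The deposited values were log2 signals of exon probe sets, and a gene value is the summary of all probe sets of a gene above background. Thy1, whose sequences drive the transgenes, was higher in all 6 transgenic mice, at 10.97 to 11.34 against 10.04 to 10.42 in the non-transgenic mice. Eif2s1 probe sets cannot check the knock-in, which changes a single codon. Microglial Csf1r and Cx3cr1 and astrocytic Gfap and Aqp4 were higher in every transgenic mouse, by 1.08, 1.04, 2.03 and 0.90 on the log2 scale. These 4 defining markers of both cell types thus moved with the transgenes, and their part in the small rises was not tested. Neuronal Snap25, Camk2a, Slc17a7, Prox1, Wfs1 and Neurod6 overlapped between the sides. Their differences were −0.05, −0.06, 0.08, −0.20, −0.03 and −0.17, in this order, and none was resolved (limma). The mean of 6 choroid plexus markers ran from 7.20 to 9.60 in transgenic and from 7.04 to 9.96 in non-transgenic mice, and it was low in 4 arrays, 2 on each side (5xFAD 1, 5xFAD;eIF2α+/S51A 2, wild-type 2 and wild-type 3). None of the 15 blood leukocyte genes tested was resolved (limma), and 3 were higher and 1 lower at an unadjusted p under 0.05, which 12.5% of all genes tested had. The mean of the leukocyte markers Cd3e, S100a8 and Ccr2 was 6.71 to 6.93 in transgenic and 6.57 to 6.92 in non-transgenic mice. Xist was high in 1 array of each genotype.

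The small differences were lopsided towards rises. Resolved rises below 1.6 fold made up 1.66% of all genes tested and resolved falls 0.0663%, while 222 genes (1.23%) rose by 1.6 fold or more and none fell that far. Ndst4, named after its values were seen, was the only gene at a larger fall, with −0.69 ± 0.18 and an adjusted p of 0.0417 (limma). The median small rise was 0.46 (1.37 fold), with quartiles of 0.37 and 0.56 and a lowest value of 0.22. The median small fall was −0.42 (1.33 fold). The median SE was 0.08 among the rises and 0.09 among the falls.

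**Figure D1:**
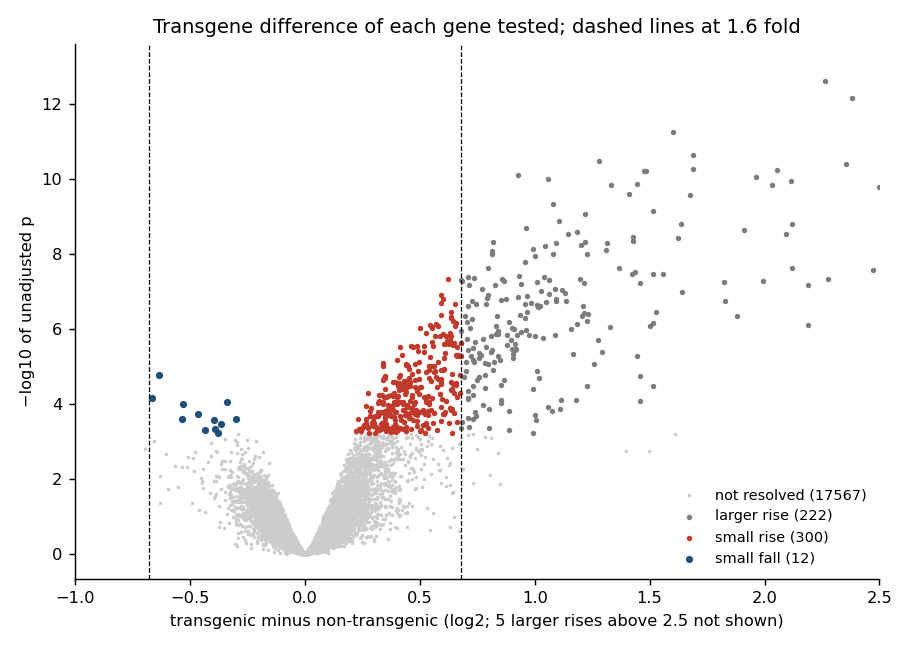
Transgene difference of each of 18101 genes (x axis, log2 transgenic minus non-transgenic) against −log10 of its unadjusted p (y axis). The 300 small rises and 12 small falls lie between the dashed lines at 1.6 fold and above the unresolved genes, 222 genes rose by 1.6 fold or more (5 of them beyond the axis), and no resolved gene lies left of the lower line.

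All 6 transgenic mice were above all 6 non-transgenic mice for 268 of the 300 rises, a pattern that 3.56% of all genes tested showed, and all 6 were below for 8 of the 12 falls, a pattern of 0.21% of all genes. Because the same contrast chose the genes, nothing is read from these shares. The remaining 32 rises and 4 falls overlapped between the sides. Of the 4541 probe sets of the rises 94.8% were higher and of the 92 probe sets of the falls 96.7% were lower, against 70.7% of probe sets pointing the same way as their gene among unresolved genes. The gene values that chose the genes were summaries of these same probe sets, so counts of probe sets per gene are a description. At the fold limit, P2ry12 (0.678), Abca1 (0.677) and Arhgdib (0.677) lay just inside and Irgm2 (0.679), Cmklr1 (0.680) and Tgif1 (0.681) just outside. At the limit on adjusted p, Alox5ap (0.01997), Palmd (0.01983) and Pmp22 (0.01982) lay just inside and 1810044D09Rik (0.02007), Fads2 (0.02007) and Dna2 (0.02019) just outside.

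The 12 falls were few, and each is given here. Neprilysin, the product of Mme, is a membrane peptidase that cleaves amyloid-β and several neuropeptides. Its array values were a lowest, median and highest of 6.41, 6.65 and 6.71 in transgenic mice, against 6.78, 6.95 and 7.08 in non-transgenic mice. All 6 transgenic mice were below all 6 others, with a difference of −0.34 ± 0.06, and 13 of its 15 probe sets were lower. Array values of a gene are given in this order throughout, on the log2 scale. Mme was the only resolved fall among the 30 genes tested of the list of secretases and amyloid-degrading enzymes, which also holds Thy1. Tac1 had a lowest, median and highest value of 7.72, 7.90 and 8.16 in transgenic mice, against 8.19, 8.40 and 8.67 in non-transgenic mice. Tac1 encodes the precursor of substance P and neurokinin A, and it differed by −0.53 ± 0.10 with no overlap.

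Prohormone convertase 1, which Pcsk1 encodes, cuts neuropeptide and hormone precursors, and the gene is counted among those that neuronal activity induces. Pcsk1 had a lowest, median and highest value of 7.99, 8.11 and 8.31 in transgenic mice, against 8.38, 8.61 and 8.83 in non-transgenic mice. The sides did not overlap, all 17 probe sets were lower and the difference was −0.47 ± 0.09. Its promoter is printed because it carries the palindromic cAMP response element through which activity-regulated factors of the CREB family bind DNA. The sequence covers 250 bases before and 50 bases after the start in RefSeq (chr13:75089607-75089906, plus strand, GRCm38.p6), with the element TGACGTCA in capitals 78 bases before the start.
Pcsk1: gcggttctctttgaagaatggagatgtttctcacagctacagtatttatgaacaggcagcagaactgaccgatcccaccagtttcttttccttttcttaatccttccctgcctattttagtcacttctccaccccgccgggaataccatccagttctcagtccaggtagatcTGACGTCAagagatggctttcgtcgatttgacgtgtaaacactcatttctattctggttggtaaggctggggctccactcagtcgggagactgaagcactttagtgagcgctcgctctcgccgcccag
On either strand these letters stood in 1.79% of all 32851 RefSeq promoters, in 2.51% of the promoters of tested genes and in 0.292% of those of the small rises. Of the 12 falls 7 had a promoter in the table, and Pcsk1 alone among them held the element.

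Npbwr1 encodes a receptor for neuropeptides B and W. Its values were 7.49, 7.82 and 8.01 in transgenic mice, against 7.94, 8.25 and 8.48 in non-transgenic mice, and the sides overlapped. It differed by −0.44 ± 0.10 and rested on 2 probe sets. Plppr5, a neuronal membrane protein related to phospholipid phosphatases, was the least changed of the falls. Plppr5 had a lowest, median and highest value of 10.12, 10.22 and 10.36 in transgenic mice, against 10.42, 10.52 and 10.69 in non-transgenic mice. All 6 transgenic mice were below the others, and the difference was −0.30 ± 0.06.

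The largest falls were in genes with less settled roles. Glt8d2 encodes a protein with a glycosyltransferase domain. Glt8d2 had a lowest, median and highest value of 6.98, 7.24 and 7.31 in transgenic mice, against 7.50, 7.84 and 8.10 in non-transgenic mice. The sides did not overlap and the difference was −0.63 ± 0.10, with all 12 probe sets lower. Fam163a came closest to the fold limit among the falls, at −0.67 ± 0.12. Its values were 7.02, 7.35 and 7.67 in transgenic mice, against 7.76, 8.04 and 8.17 in non-transgenic mice, again without overlap. The uncharacterized 4930543I03Rik fell by 0.54 on 2 probe sets, and its sides overlapped.

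The other 4 falls have unlike functions. Slco4c1, an organic anion transporter, had values of 6.07, 6.32 and 6.41 in transgenic mice, against 6.47, 6.68 and 6.84 in non-transgenic mice. It did not overlap, and neither did Palmd (palmdelphin, −0.38 ± 0.08). Rnase1, a secreted ribonuclease (−0.37 ± 0.08), and Ttc30b, a component of intraflagellar transport (−0.39 ± 0.08), did. Leaving out each of the 12 arrays in turn, Glt8d2, Fam163a, Mme and Tac1 stayed resolved in every fit; the other 8 falls stayed resolved in 2 to 7 of the 12 fits, with a highest adjusted p (limma) between 0.0240 and 0.0572, and all 12 kept their direction in all of them. When each gene was summarized by a median over its probe sets, Glt8d2, Mme and 4930543I03Rik were the only falls still resolved. With the choroid plexus score as a covariate 11 of the 12 falls were still resolved. The 4 arrays with low choroid plexus markers were left out in a further fit, a choice made after seeing the data. Wild-type replicate 1 was the only wild-type array among the 8 that remained, and the falls were not resolved. All 12 kept their direction, with a median difference of −0.47. These 8 arrays are among the 12 that chose the genes, so nothing is read from the direction.

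**Figure D2:**
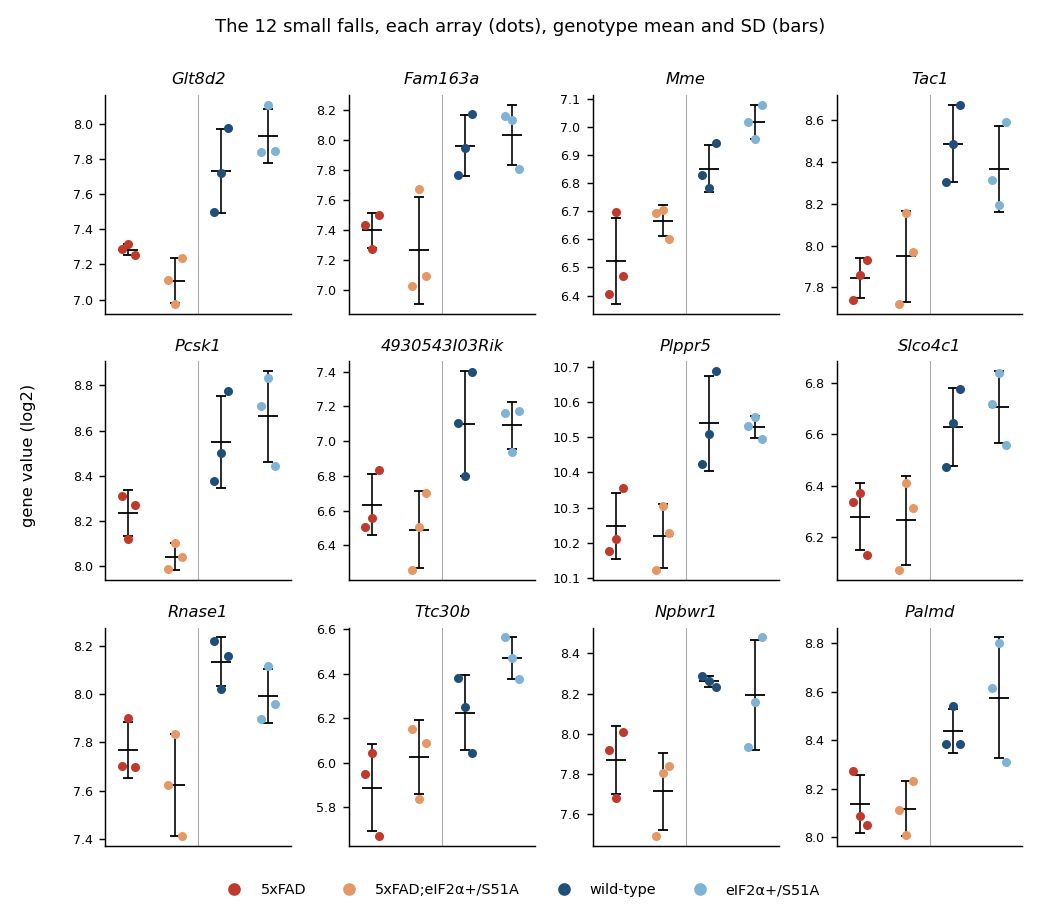
Gene values (y axes, log2) of the 12 small falls in each of the 12 arrays, by genotype, with the mean and SD of the 3 mice as bars; the transgenic genotypes stand left of the grey line. The 4 genes whose sides overlap are 4930543I03Rik, Rnase1, Ttc30b and Npbwr1.

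The lists of neuronal genes held almost no resolved member, and their medians were slightly below 0. Of 42 genes of the excitatory synapse 6 were above 0, with a median of −0.11, and of 61 neuronal ion channel genes 9 were above 0, with a median of −0.10. None was resolved in either list by limma, and at an unadjusted p under 0.05 there were 9 and 14 lower genes and 0 and 1 higher ones, against 575 lower and 1692 higher of all genes tested. Over all genes tested, 9751 of 18101 were above 0 and the median was 0.01. Of 46 presynaptic genes 10 were above 0 (median −0.05) and of 38 genes of GABAergic interneurons 13 were (median −0.05), with Tac1 the only one resolved. Genes of a list share cells and pathways and are not independent, so these counts carry no test. Fos, an immediate early gene, was the only resolved rise among 41 activity-regulated genes. Fos had a lowest, median and highest value of 6.24, 6.48 and 6.73 in transgenic mice, against 5.74, 5.91 and 6.37 in non-transgenic mice. The sides overlapped and the difference was 0.53 ± 0.11.

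The signalling machinery of myeloid cells, the lineage of microglia and macrophages, was among the lists with the most small rises. Of 44 genes of myeloid receptors and signalling 12 showed a small rise and 24 a larger one. Pik3ap1, an adaptor that couples receptors to phosphoinositide 3-kinase, had values of 6.98, 7.02 and 7.10 in transgenic mice, against 6.31, 6.42 and 6.58 in non-transgenic mice. No values overlapped, the difference was 0.59 ± 0.06, and all 21 probe sets were higher. Ptpn6 encodes the phosphatase SHP-1, which restrains immune receptor signalling. Ptpn6 had a lowest, median and highest value of 7.17, 7.27 and 7.60 in transgenic mice, against 6.59, 6.69 and 6.83 in non-transgenic mice. It differed by 0.62 ± 0.08 without overlap. Hcls1, an actin-binding substrate of tyrosine kinases in blood cells, differed by 0.50 ± 0.06 and Plcg2, a phospholipase downstream of microglial receptors, by 0.45 ± 0.07, both without overlap. The rest of the 12 were Dock8, Fermt3, Rac2, Arhgap25, Btk, Sirpa, Arhgap30 and Alox5ap, between 0.23 and 0.62.

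Genes of both microglial states were among the rises. The receptor tyrosine kinase Axl, which recognizes dying cells through bridging ligands, had the smallest p of all small rises. Axl had a lowest, median and highest value of 8.96, 9.17 and 9.22 in transgenic mice, against 8.43, 8.53 and 8.59 in non-transgenic mice. All transgenic mice were above, with a difference of 0.62 ± 0.06. Of 30 genes of plaque-associated microglia 5 showed a small rise (Axl, Ctsb, Apoe, Hif1a and Timp2) and 18 a larger one. Of 19 genes of resting microglia 4 showed a small rise and 10 a larger one. The ADP receptor P2ry12, by which microglial processes find injured tissue, had values of 8.71, 8.93 and 9.10 in transgenic mice, against 8.08, 8.20 and 8.53 in non-transgenic mice. It did not overlap and differed by 0.68 ± 0.09. Sall1, a transcription factor of microglial identity, differed by 0.57 ± 0.07 and Gpr34, a lysophosphatidylserine receptor, by 0.49 ± 0.10; the sides overlapped for Gpr34 alone of these 3.

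Among the transcription factors of myeloid cells, 4 of 22 showed a small rise. Irf5, which acts downstream of Toll-like receptors, differed by 0.49 ± 0.07, Ikzf1 (Ikaros) by 0.44 ± 0.06, Nfatc1 by 0.32 ± 0.06 and Bhlhe41 by 0.51, all without overlap, while Runx1, Irf8 and Spi1 rose by 1.6 fold or more. Tlr3, the endosomal receptor for double-stranded RNA, had values of 9.19, 9.33 and 9.68 in transgenic mice, against 8.68, 8.85 and 8.98 in non-transgenic mice. It differed by 0.53 ± 0.09 and Tlr9, the receptor for unmethylated CpG DNA, by 0.43 ± 0.08. Both rose without overlap, and 9 other genes of the 26 in the list of Toll-like receptors and NF-kB rose by 1.6 fold or more. The phagocyte NADPH oxidase, which makes superoxide, had 3 small and 3 larger rises among 10 genes tested. The small rises were the membrane subunit Cyba (0.68 ± 0.09), the GTPase Rac2 (0.61 ± 0.08) and the cytosolic subunit Ncf4 (0.33 ± 0.07).

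The degradative enzymes of the lysosome rose on both sides of the fold limit. Of 59 lysosomal genes tested 8 showed a small rise, all without overlap, and 14 a larger one. Cathepsin B, a cysteine protease encoded by Ctsb, had values of 11.76, 11.89 and 11.99 in transgenic mice, against 11.14, 11.29 and 11.37 in non-transgenic mice, a difference of 0.59 ± 0.06 with all 16 probe sets higher. Tcirg1, a subunit of the proton pump that acidifies lysosomes, differed by 0.65 ± 0.07. Npc2, which carries cholesterol out of the lysosome, had values of 8.24, 8.34 and 8.46 in transgenic mice, against 7.51, 7.76 and 7.82 in non-transgenic mice and differed by 0.64 ± 0.07. Cathepsin A, which protects β-galactosidase and neuraminidase from breakdown, had values of 10.91, 11.03 and 11.10 in transgenic mice, against 10.26, 10.45 and 10.52 in non-transgenic mice. Ctsa differed by 0.59 ± 0.06. The other 4 were Cln3 and Tpp1, both mutated in human neuronal ceroid lipofuscinoses, the heparan sulfate enzyme Naglu and the membrane protein Lamp1, between 0.28 and 0.49.

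The Ctsa promoter is printed because it carries the CLEAR letters, the element that transcription factor TFEB binds at lysosomal genes. The sequence is from RefSeq (chr2:164833523-164833822, plus strand, GRCm38.p6), with GTCACGTG, on either strand, in capitals at both of its matches, the first of them 14 bases before the start.
Ctsa: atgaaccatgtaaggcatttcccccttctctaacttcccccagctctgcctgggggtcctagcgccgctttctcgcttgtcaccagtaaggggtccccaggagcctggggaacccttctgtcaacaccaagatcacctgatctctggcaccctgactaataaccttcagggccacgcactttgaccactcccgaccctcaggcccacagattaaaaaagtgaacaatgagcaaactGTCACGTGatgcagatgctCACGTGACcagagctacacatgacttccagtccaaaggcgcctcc
The element stood in 2.25% of all RefSeq promoters of the same length, in 3.38% of those of tested genes and in 3.21% of the 343 promoters of the small rises, of which 248 genes had a promoter in the table. Of the 11 promoters of the lysosomal small rises 4 held it, those of Cln3, Ctsa, Lamp1 and Naglu. A match is a description of the letters and not of binding.

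Enzymes and carriers of cholesterol showed small rises and no larger one. Of 34 genes of cholesterol synthesis and lipid efflux tested 12 showed a small rise, 11 of them without overlap, none rose by 1.6 fold or more, and the list's median was 0.28. Squalene epoxidase, a rate-limiting step of the pathway after HMG-CoA reductase, is encoded by Sqle. Sqle had a lowest, median and highest value of 8.80, 8.93 and 9.13 in transgenic mice, against 8.28, 8.34 and 8.46 in non-transgenic mice. It differed by 0.58 ± 0.07 without overlap and all 14 probe sets were higher. Fdps makes farnesyl diphosphate, the branch point to sterols and prenyl groups, and had values of 8.05, 8.18 and 8.30 in transgenic mice, against 7.47, 7.68 and 7.72 in non-transgenic mice. It differed by 0.52 ± 0.06. Further enzymes of the same pathway were Hmgcs1 (0.38), Mvd (0.31), Fdft1 (0.47), Lss (0.43), Msmo1 (0.47) and Nsdhl (0.56), and the transcription factor Srebf1 differed by 0.38.

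The efflux side of the list was represented by its carrier and its pump. Apoe, the main lipid carrier of the brain, had values of 12.62, 12.73 and 12.81 in transgenic mice, against 11.89, 12.20 and 12.27 in non-transgenic mice. The sides did not overlap, although eIF2α+/S51A replicate 3 was low among the non-transgenic mice, and the difference was 0.56 ± 0.07 with all 12 probe sets higher. The pump Abca1, which loads lipid onto ApoE, differed by 0.68 ± 0.09, with all 77 probe sets higher. Soat1, which esterifies cholesterol for storage, differed by 0.37. Genes tested but not resolved made up the other 22 of the list.

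Astrocyte genes lay on both sides of the fold limit. Of 29 genes of astrocyte homeostasis 11 showed a small rise, all without overlap, and Aqp4 alone rose by 1.6 fold or more, while of 33 genes of reactive astrocytes Aspg alone showed a small rise (0.58 ± 0.08) and 17 a larger one. Mlc1, a protein of astrocyte endfeet, had values of 9.98, 10.11 and 10.30 in transgenic mice, against 9.57, 9.63 and 9.70 in non-transgenic mice. It differed by 0.49 ± 0.06. Clusterin, a secreted chaperone encoded by Clu, had values of 11.34, 11.40 and 11.69 in transgenic mice, against 10.64, 11.01 and 11.14 in non-transgenic mice and differed by 0.53 ± 0.10. The rest of the list's small rises were Apoe, the metallothioneins Mt1 and Mt2, the potassium channel Kcnj10 (0.36), S100b (0.43), Itih3 (0.64), Sox9 (0.39), Cst3 (0.30) and the glutamate transporter Slc1a3 (0.33). Mt1 and Mt2 are similar in sequence, so signal may be shared between them. Prdx6, a peroxiredoxin, was on no list. Prdx6 had a lowest, median and highest value of 9.53, 9.68 and 9.82 in transgenic mice, against 8.88, 9.08 and 9.16 in non-transgenic mice. It differed by 0.63 ± 0.07 without overlap.

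**Figure D3:**
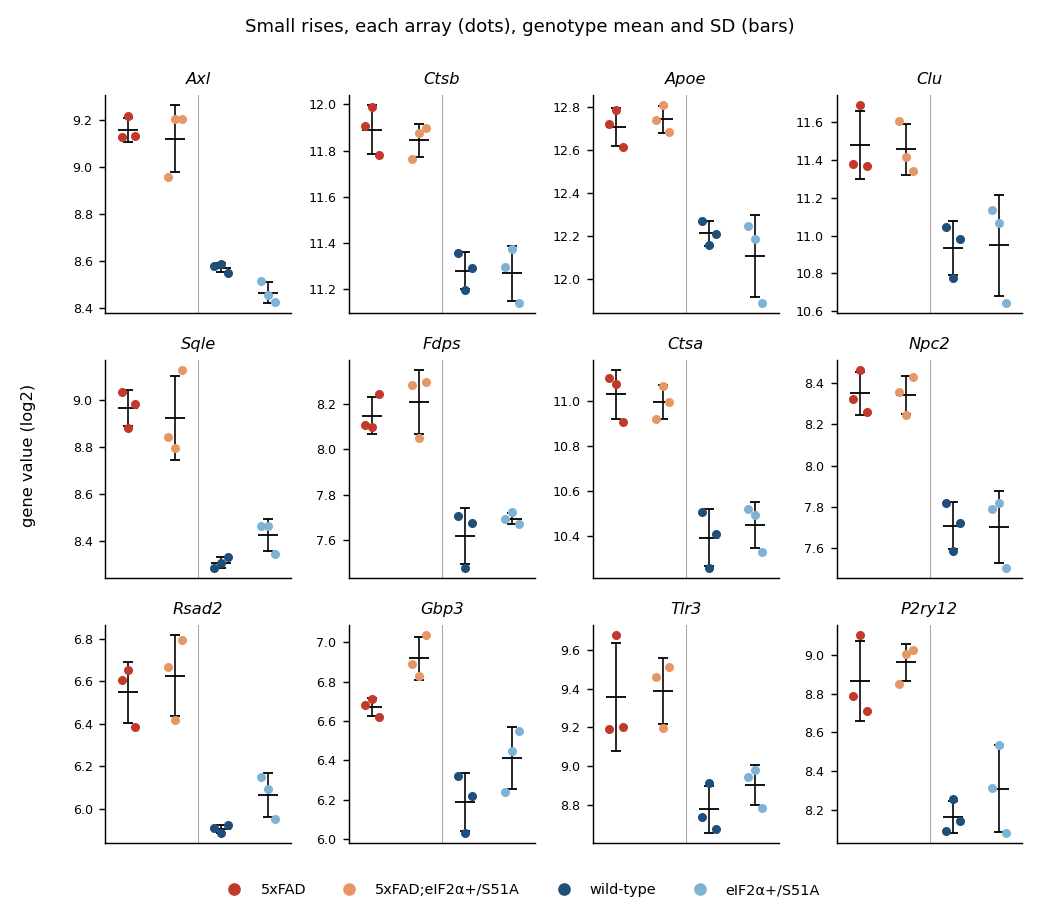
Gene values (y axes, log2) of 12 small rises of the microglial, lysosomal, lipid, astrocytic and interferon lists in each array, by genotype, with the mean and SD of 3 mice as bars; the transgenic genotypes stand left of the grey line. The 6 transgenic arrays lie above the 6 non-transgenic arrays for all 12 genes.

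Interferon-stimulated genes are induced when STAT and IRF factors bind the interferon-stimulated response element. Of 40 such genes 10 showed a small rise, 7 of them without overlap, and 6 a larger one, with a list median of 0.40. Rsad2, which encodes the antiviral enzyme viperin, had values of 6.39, 6.63 and 6.79 in transgenic mice, against 5.89, 5.94 and 6.15 in non-transgenic mice. It differed by 0.60 ± 0.07. The guanylate-binding protein Gbp3 had values of 6.62, 6.77 and 7.04 in transgenic mice, against 6.03, 6.28 and 6.55 in non-transgenic mice and differed by 0.50 ± 0.07. Guanylate-binding protein genes are similar in sequence, so the share of each in the signal is uncertain. Rtp4 differed by 0.66 ± 0.11. The others were Psme1, Dtx3l, Ddx58 (RIG-I, a sensor of viral RNA), Stat2, Parp14, Ifit2 and Sp100, between 0.27 and 0.49. Trim5, of a family with close copies side by side in the genome, was on no list and differed by 0.60 ± 0.06, on 3 probe sets.

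The promoters of Rsad2 and Gbp3 are shown for their matches to the letters AAANNGAAA, a core of the response element, in capitals. They are RefSeq sequences of GRCm38.p6, at chr12:26456403-26456702 on the minus strand and at chr3:142559794-142560093 on the plus strand, both printed in the direction of transcription.
Rsad2: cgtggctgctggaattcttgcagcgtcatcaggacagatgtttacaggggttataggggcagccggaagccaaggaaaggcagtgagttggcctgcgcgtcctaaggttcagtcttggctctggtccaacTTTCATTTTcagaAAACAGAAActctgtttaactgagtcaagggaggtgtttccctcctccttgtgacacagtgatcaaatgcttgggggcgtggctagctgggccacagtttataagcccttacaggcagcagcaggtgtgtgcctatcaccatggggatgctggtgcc
Gbp3: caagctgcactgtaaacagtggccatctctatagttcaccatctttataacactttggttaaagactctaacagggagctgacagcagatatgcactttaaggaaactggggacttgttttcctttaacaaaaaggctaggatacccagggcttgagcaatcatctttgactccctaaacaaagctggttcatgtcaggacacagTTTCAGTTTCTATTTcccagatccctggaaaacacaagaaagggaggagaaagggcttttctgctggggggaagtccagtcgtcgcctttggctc
Both held 2 matches on either strand, beginning 120 and 107 bases before the start in Rsad2 and 45 and 39 bases before it in Gbp3, where they overlap. The letters stood in 10.6% of all RefSeq promoters, in 8.32% of those of tested genes, in 14% of those of the small rises and in 7 of the 11 promoters matched to 8 of the 10 interferon small rises, some genes having several (63.6%). The same search for GAGGAAGT, the letters of the myeloid factor PU.1, found 3.2% of all promoters, 2.87% of those of tested genes and 5.25% of those of the small rises. The letters AAANNGAAA also stood in 27.3% of the promoters of the lysosomal small rises. They stood in 10% of those of the myeloid signalling small rises and in 2 of the 9 promoters of the falls. The STAT letters TTCNNNGAA stood in 8.3% of all promoters, in 7.15% of those of tested genes and in 7.87% of those of the small rises. Promoters searched here are 300 bases long, and letters outside them were not searched.

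In antigen presentation 2 of 25 genes showed a small rise and 7 a larger one. Tapasin, which loads peptides onto class I molecules and is encoded by Tapbp, differed by 0.52 ± 0.09. The class I gene H2-T23 differed by 0.59 ± 0.12, but class I genes are near-identical in parts and its signal may come from others. In complement 2 of 21 genes showed a small rise, Clu and the lectin pathway protease Masp1 (0.31 ± 0.06), and 9 a larger one. Both complement genes were without overlap.

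Mouse counterparts of Alzheimer risk genes were found on both sides of the fold limit. Of 39 tested, 7 showed a small rise (Ctsb, Apoe, Plcg2, Blnk, Treml2, Rin3 and Clu), all without overlap and between 0.35 and 0.59, and 8 a larger one. Plau, the protease urokinase, was the only small rise of the list of secretases and amyloid-degrading enzymes, where Thy1 alone rose by 1.6 fold or more. Plau had a lowest, median and highest value of 6.59, 7.02 and 7.20 in transgenic mice, against 6.31, 6.42 and 6.64 in non-transgenic mice. The sides overlapped and the difference was 0.54 ± 0.10. Of 45 genes of actin and phagocytosis 4 showed a small rise and 5 a larger one, with the actin-severing gelsolin Gsn at 0.59 ± 0.07 and Capg at 0.60 ± 0.09 among the small rises. Hmox1, which breaks down haem, was the only small rise of 21 iron genes (0.56 ± 0.07), and 3 of them showed a larger rise. Of 55 genes of TGF-beta and the extracellular matrix 9 showed a larger rise and 3 a small one: Anxa5 (0.66 ± 0.11), Itga6 (0.54 ± 0.11) and Timp2 (0.43 ± 0.09).

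Most myelin genes were not resolved. Of 33 genes of oligodendrocytes and myelin 31 were above 0, with a median of 0.18, but only Mobp and Cldn11 showed a small rise and Trf a larger one. At an unadjusted p under 0.05 there were 13 higher genes and no lower one in limma, beside 1692 higher and 575 lower of all 18101 genes tested. Mobp, a protein of compact myelin, had values of 10.24, 10.36 and 10.41 in transgenic mice, against 9.67, 9.95 and 10.09 in non-transgenic mice and differed by 0.44 ± 0.07. Cldn11, the tight junction claudin of myelin, had values of 9.90, 10.10 and 10.40 in transgenic mice, against 9.23, 9.57 and 9.69 in non-transgenic mice. It differed by 0.60 ± 0.11, and neither gene overlapped. The genes of the cytosolic ribosome, 44 in number, had a median of 0.17 with 42 above 0 and no resolved member (limma). Of the 44, 23 had an unadjusted p under 0.05 in limma, all of them higher, beside 12.5% of all genes tested in either direction. Both medians stayed above 0 under quantile normalization and under a shift of all arrays to the same median.

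The lists of the pathway that the S51A allele targets are short beside the shares of all genes tested (1.66% small rises, 0.0663% small falls). Lists of this size would hold few or no members at those shares, so nothing is read from their number. By limma, none of 48 genes of ATF4 and the integrated stress response showed a small rise or fall. Atf3 and Aldh1l2 rose by 1.6 fold or more (4.17% of the list, beside 1.23% of all genes tested). At an unadjusted p under 0.05 there were 9 higher genes and 1 lower one among the 48, beside 12.5% of all genes tested. Above 0 were 39 of the 48, with a median of 0.06. That count depended on the processing: it was 32 after quantile normalization (median 0.03) and 27 with the same median for every array (median 0.01). None of 20 genes of eIF2 and its kinases and phosphatases showed a small rise or fall either, and Eif2ak2 rose by more. In limma 2 of the 20 had an unadjusted p under 0.05, both higher, near the 12.5% of all genes tested. Of 40 genes of the unfolded protein response 26 were above 0. This became 22 after quantile normalization and 20 with the same median for every array. Of these 40 genes 5 were higher and none lower at an unadjusted p under 0.05 in limma, again near the share of all genes tested. Nothing is read from these counts. Edem1 was the only one of the 40 resolved (2.5%, beside 1.66% small rises among all genes tested). It encodes a component of the disposal of misfolded glycoproteins from the endoplasmic reticulum. Edem1 had a lowest, median and highest value of 8.51, 8.54 and 8.79 in transgenic mice, against 7.77, 8.06 and 8.21 in non-transgenic mice. It differed by 0.57 ± 0.08 without overlap. No member came from the lists of choroid plexus (25 tested), brain endothelium and pericytes (39), red blood cells (5), cell cycle (34) or the mitochondrial respiratory chain (62). Limma gave 0, 1, 0, 4 and 1 of these genes, in this order, at an unadjusted p under 0.05, beside 12.5% of all genes tested. Lists of this size would hold few members at the share of all genes, so nothing is read from their absence.

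Several of the best resolved rises were on no list, as were 216 of the 300. Gpr183, a receptor for oxysterols that guides immune cells, had values of 6.34, 6.42 and 6.63 in transgenic mice, against 5.68, 5.84 and 5.93 in non-transgenic mice and differed by 0.64 ± 0.07. Zfp36, which destabilizes cytokine mRNAs, differed by 0.65 ± 0.07, and Lgals1, the lectin galectin-1, by 0.66 ± 0.08. Mfap3l (0.65 ± 0.08) and 2810459M11Rik (0.55 ± 0.06) completed the 15 with the smallest p. All 5 were without overlap.

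**Figure D4:**
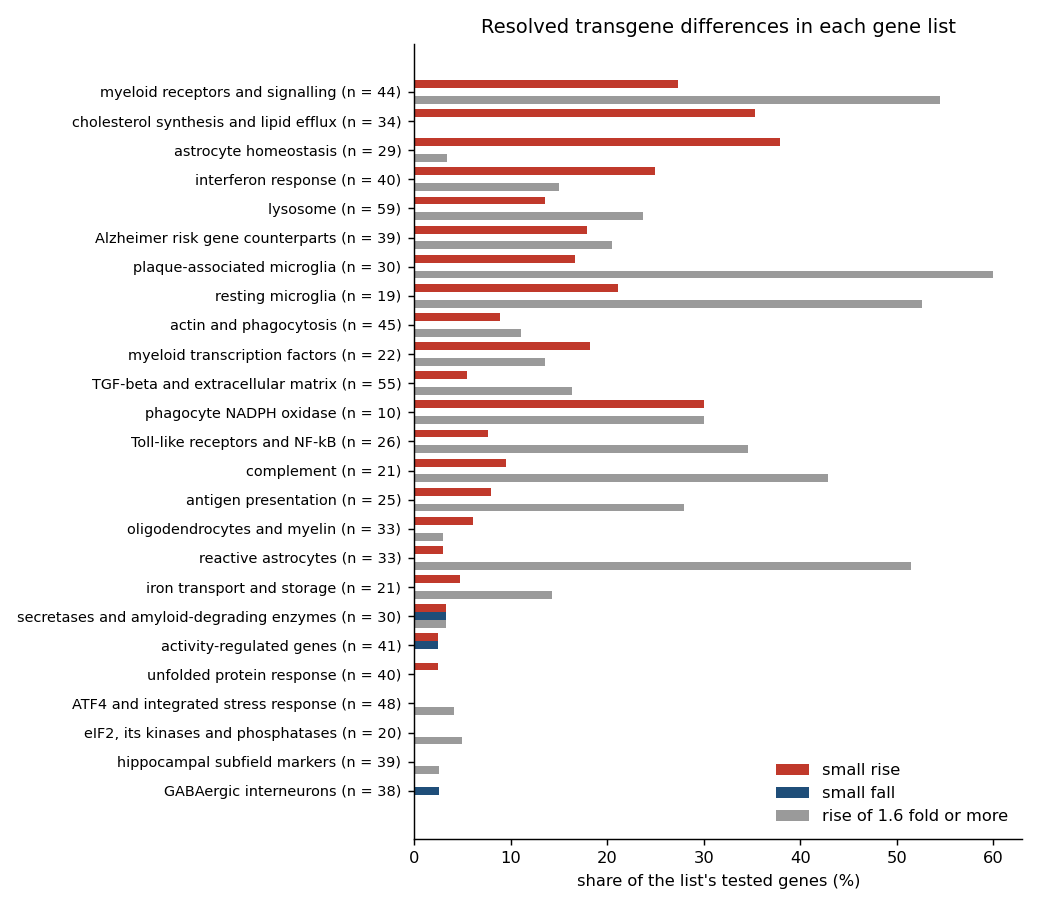
Share (x axis, %) of the tested genes of each list (y axis, with the number tested) that showed a small rise, a small fall or a rise of 1.6 fold or more. The cholesterol list has 12 small rises and none of 1.6 fold or more, and the astrocyte homeostasis list 11 and 1, whereas plaque-associated microglia have 5 and 18. Lists with no resolved gene are left out.

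The differences made by the allele and by the interaction did not choose the genes, and both were tested. The p that chose them rests on a residual spread that the allele test shares and that any interaction widens. The shares of the 312 genes below are therefore not free of the selection. With the allele, none of the 312 genes passed an adjusted p under 0.02 in limma (lowest 0.9996), and 0% of all 18101 genes did. At an unadjusted p under 0.05 there were 16 of the 312 (5.13%) beside 2.67% of all genes tested and 20 of the 222 larger rises. Of the 16, 15 were higher with the allele, and 4 were on the interferon list (Gbp3, Rtp4, Ifit2 and Sp100). Trim5 had the smallest p of them, with a difference of 0.26 ± 0.06 for mice with minus mice without the allele (unadjusted p in limma 0.000804, adjusted 0.9996). Gbp3 differed by 0.23 ± 0.07 (adjusted p 0.9996) and Rtp4 by 0.31 ± 0.11 (adjusted p 0.9996). Genes of 1 pathway move together and do not count as separate evidence. No background over all genes tested is given for the 15 higher genes or the 4 interferon genes, so nothing is read from either count. The 95% interval of the allele difference had a median half-width of 0.16.

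The difference made by the transgenes also had the same sign with and without the allele for all 312 genes, as their selection on the pooled value would largely fix. For the interaction, which asks whether the transgene difference depends on the allele, none of the 312 passed (lowest adjusted p 1 in limma), and 0% of all genes did. At an unadjusted p under 0.05 there were 8 of the 312 (2.56%) beside 2.35% of all genes tested, a share near that background. Mt1 had the smallest p of them (0.00882, limma, adjusted 1): it differed by 0.73 between 5xFAD;eIF2α+/S51A and eIF2α+/S51A mice, and by 0.34 between 5xFAD and wild-type mice. H2-T23 (0.86 with the allele and 0.32 without it) went the same way and Plau (0.31 and 0.77) the other way. Among the falls, Glt8d2 differed by −0.82 with the allele and −0.45 without it, and Tac1 by −0.42 and −0.64. Tac1 was the exception among the 12 falls, of which the other 11 had a lower difference with the allele than without it. Of all genes tested 58.6% had a lower difference with it as well, with a median interaction of −0.03, so nothing particular to the falls is read from this count. The median half-width of the 95% interval of the interaction was 0.33.

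**Figure D5:**
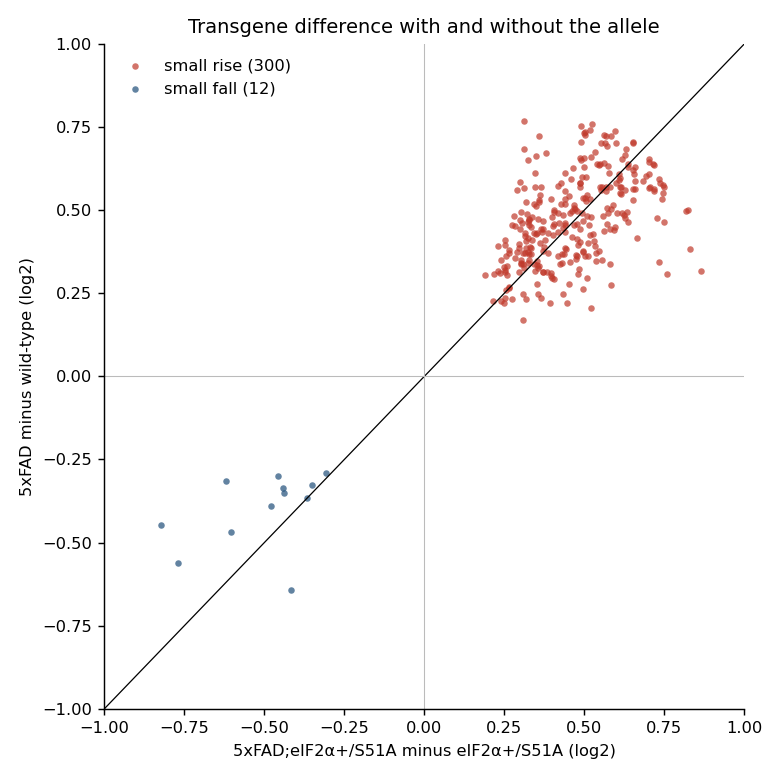
Transgene difference of the 312 genes with the S51A allele (x axis, log2, 5xFAD;eIF2α+/S51A minus eIF2α+/S51A) and without it (y axis, log2, 5xFAD minus wild-type); the line marks equality. All 300 rises lie above 0 and all 12 falls below 0 on both axes.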

How the data were processed

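RNA of the hippocampus was measured on 12 exon arrays. The authors deposited log2 signals per probe set. Expression Console (Affymetrix) and RMA are listed in the submitters' processing notes, with versions not given in the sources used here, while the methods of the study name GC-RMA, so which program made the table was not settled. How its background correction and normalization bear on small differences was not tested. The genome build was not given in the sources used here.

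Of 1236087 probe sets with values, 321091 had 1 gene symbol in the platform annotation, and only these were used. Those at or above the median level of the table (5.35) entered a median polish per gene with at least 2 probe sets, which gave 18101 genes; the median gene had 10. The number of arrays, and not a read depth, limits the precision: the median half-width of the 95% interval of the transgene difference was 0.17. limma 3.58.1 in R 4.3.3 fitted the transgenes and the allele over all arrays, and, in a separate fit, their interaction. The fits were tested on simulated data.

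The members and the 36 gene lists were chosen with earlier results of these data known. The named genes were the 15 rises and the 12 falls with the smallest p, up to 3 members of each list, and those nearest each limit; other list members are named to complete a list, and Ndst4, Atf3, Aldh1l2, Eif2ak2, Runx1, Irf8, Spi1, Trf and Aqp4, as well as the allele and interaction genes, were chosen after their values were seen. Mice were taken as separate animals from their labels. Alternatives changed the gene summary, the filter, the normalization, the covariates, the weights, the thresholds and the arrays included. Promoters came from a RefSeq table of GRCm38.p6.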

Additional observations from a re-analysis of the deposited data

Results flagged for a closer look

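Among the 73 genes named by the rule, 146 sets of 6 arrays were checked for an array far from the others (a gap to its neighbour, as a share of the range, above Dixon's 95% critical value), and 7 had one; chance flags about 1 in 20 groups. In transgenic mice these were Axl in 5xFAD;eIF2α+/S51A replicate 1 (8.96, next value 9.13), Ptpn6 in 5xFAD replicate 2 (7.60, next 7.31) and Edem1 in 5xFAD replicate 2 (8.79, next 8.59). In non-transgenic mice they were 2810459M11Rik in wild-type replicate 3 (7.82, next 7.92), Apoe in eIF2α+/S51A replicate 3 (11.89, next 12.16), Fdps in wild-type replicate 2 (7.48, next 7.67) and Fos in eIF2α+/S51A replicate 3 (6.37, next 5.96). No array held more than 2 of the 7. No interaction between transgenes and allele passed the threshold in limma for any named gene.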

How the results depend on the processing

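All 300 rises and 12 falls kept their direction under every alternative in which they were tested, but which of them were resolved depended on the processing. The main counts of 300 rises and 12 falls became 172 and 5 when the gene value was the median over its probe sets, with 131 of the rises and 3 of the falls among the main ones. Falls numbered 21 after quantile normalization, 26 with the same median for every array, 28 with array weights, 30 at an adjusted p under 0.05 and 6 at one under 0.01, and testing probe sets one by one gave 187 genes with at least 1 probe set showing a small rise. Leaving out each array in turn gave 208 to 269 rises and 4 to 17 falls. The falls were 7 without 5xFAD replicate 1, eIF2α+/S51A replicate 2, wild-type replicate 2 or 5xFAD replicate 3, 5 without wild-type replicate 3 or 5xFAD;eIF2α+/S51A replicate 3, and 4 without 5xFAD;eIF2α+/S51A replicate 1. Of the 300 rises 183 stayed resolved without any of the arrays, and of the named ones Itga6, Masp1, H2-T23, Gpr34, Timp2, Fos, Ncf4, Pmp22 and Alox5ap did not, with a highest adjusted p between 0.0223 (Itga6) and 0.0561 (Alox5ap). Leaving out the 4 arrays with low choroid plexus signal, a choice made after seeing the data, left 41 rises and 0 falls with 8 arrays in the fit, and 34 of these rises were among the 300. All 300 rises and 12 falls kept their direction there, with median differences of 0.46 and −0.47. The 8 arrays, with wild-type replicate 1 as the only wild-type array, are among the 12 that chose the genes. Nothing is therefore read from the kept direction. With the choroid plexus score as a covariate 287 of the 300 rises and 11 of the 12 falls were still resolved. The counts of members called for the allele and for the interaction were 0 in the alternatives where they were computed, which leave out the mean per genotype group, the fit with no covariate, the fit without the 4 arrays and the single probe sets, and the cause of the changes in the other counts was not tested.

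Whether the replicate numbers pair the mice was not settled by the correlation of deviations from the genotype means. Over 18 pairs of arrays with the same number it ran from −0.321 to 0.316, with a median of 0.027, and was over 0.1 in 8. Over 36 pairs with different numbers it ran from −0.454 to 0.442, with a median of −0.006, and was over 0.1 in 10. With the replicate block there were 284 rises and 13 falls, 266 and 11 of them among the main ones.

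With 6 mice a side, a gene of the median SE would have needed a difference of about 0.35 to be resolved at an adjusted p under 0.02. The medians of the neuronal, myelin and ribosomal lists lie below that size. Genes below background and genes without a usable probe set were not analysed here.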

Other observations

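Other small rises on no list are given here as values; they were chosen and put beside each other after their values were seen, so they carry no test. Casp8, a protease of death receptor signalling, had a lowest, median and highest value of 7.46, 7.67 and 8.04 in transgenic mice, against 6.81, 7.03 and 7.27 in non-transgenic mice, a difference of 0.67 ± 0.10. Pycard, the adaptor of inflammasomes, differed by 0.62 ± 0.08 and Casp1, the protease that inflammasomes activate, by 0.58 ± 0.09. Sting1, which relays the detection of cytosolic DNA, differed by 0.52 ± 0.10. The sides did not overlap for any of these 4 genes.

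Receptors for nucleotides and cytokines were also present. Entpd1, an enzyme of the cell surface that breaks down ATP and ADP, had values of 8.46, 8.54 and 8.70 in transgenic mice, against 7.89, 7.98 and 8.17 in non-transgenic mice, a difference of 0.55 ± 0.06. The ATP-gated channels P2rx4 and P2rx7 differed by 0.35 ± 0.07 and 0.37 ± 0.07, and only P2rx7 overlapped. Of cytokine receptor subunits, Il2rg differed by 0.61 ± 0.11, Il4ra by 0.55 ± 0.08, Ifnar2 by 0.40 ± 0.09 and Ifngr1 by 0.35 ± 0.08, all without overlap. Csf2rb (0.44 ± 0.07) and Csf2rb2 (0.39 ± 0.08) are near-identical in sequence, and signal may be shared between them.

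Enzymes of eicosanoid metabolism and of redox control were small rises as well. Ptgs1 (cyclooxygenase-1) had values of 7.45, 7.57 and 7.88 in transgenic mice, against 6.81, 6.94 and 7.12 in non-transgenic mice, a difference of 0.65 ± 0.08 without overlap. Alox5, the 5-lipoxygenase, differed by 0.36 ± 0.07 without overlap, and Hpgd, which inactivates prostaglandins, by 0.61 ± 0.12 with overlap. Nfe2l2, the transcription factor of the antioxidant response, differed by 0.60 ± 0.08, and Gpx1, a glutathione peroxidase, by 0.39 ± 0.08, both without overlap.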
